A study of Mus musculus with 8 samples.

Results

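A set of 10 genes of the Bcl2 family was followed through CD4+ T cells of the neonatal liver: Bcl2, Mcl1, Bcl2l1, Bcl2a1b and Bcl2a1d, whose proteins keep cells alive, Bax and Bak1, whose proteins open the mitochondrial membrane, and the BH3-only genes Bcl2l11, Pmaip1 and Bbc3, whose proteins start the process. They were picked by gene symbol from a table of 52997 symbols, and all 10 of the 10 were found. Cells came from livers of mice labelled Aire- Foxp3 GFP+ on the C57/Bl6 background, at 5 or 10 days of age. Every group, the PD-1- controls included, therefore shares the loss of Aire, which directs the display of self antigens in the thymus, and no Aire-sufficient mouse was part of the series. The sort took DAPI-, CD45+, TCRb+, CD4+ cells without Foxp3 and divided them by PD-1, an inhibitory receptor that T cells put on their surface after antigen contact, with about 1000 cells going into a library. There were 4 groups of 2 libraries each: PD-1- at 5 days, PD-1+ at 5 days, PD-1- at 10 days and PD-1+ at 10 days. The labels do not say whether a library came from 1 animal or from several, so p-values measure only the spread between these libraries, which may be in part technical.

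Members of this family decide whether a T cell survives. Bcl2, Mcl1, Bcl-xL (from Bcl2l1) and A1 (from the Bcl2a1 genes) hold Bax and Bak in check. BH3-only proteins bind the survival proteins or Bax and Bak directly, and once Bax and Bak form pores, cytochrome c leaves the mitochondrion and activates caspases. Resting T cells are known to depend on Bcl2, sustained by interleukin-7, and on Mcl1, whereas stimulation through the antigen receptor is known to induce Bcl-xL and A1. Bim, the product of Bcl2l11, removes self-reactive thymocytes and ends T cell responses.

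Library totals ran from 1473216 to 3019551 counts. The sort marker Pdcd1 stood at 1.36 ± 0.591 CPM (counts scaled by library size and composition; ± is the SD between libraries) in PD-1- and 445 ± 194 in PD-1+ libraries (n = 4 each). All 10 defining T cell markers were detected in both populations. By the tests used below 0 of them were called over both ages, but at 5 days Thy1 was higher and Cd3d and Cd3e were lower in PD-1+ cells, and at 10 days Cd4, Trbc1, Cd3e, Trac and Cd3g were higher. Both 5-day libraries numbered 3 carried Y-linked transcripts (672 and 601 counts), and the other 6 libraries had 0 and were female by Xist, so sex and age are partly mixed. Aire was too sparse in T cells, at 0 to 2 counts a library, to check the genotype.

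Across both ages, PD-1+ cells held less Bcl2 and Mcl1 and more Bcl2l1, Bcl2a1b, Bcl2a1d, Pmaip1, Bcl2l11 and Bax than PD-1- cells. Of the 10 genes, 6 were called higher, 3 lower (Bbc3 being the third) and 1, Bak1, was not called (edgeR quasi-likelihood test, additive model of age and PD-1, Benjamini-Hochberg adjusted p below 0.05 over 11490 genes). Among all tested genes, 21.9% were called higher and 19.6% lower. The median log2 fold change of the 10 was 0.94, against -0.01 over all tested genes. For 8 of the 10 the PD-1+ and PD-1- libraries did not overlap, as for 34.8% of all tested genes. Bcl2a1b and Bcl2a1d passed the filter on low counts through the PD-1+ libraries and Bbc3 through the PD-1- libraries, so these members had to differ and the counts support nothing about the family as a whole. In bulk samples, fewer cells expressing a gene and less RNA per cell cannot be told apart.

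**Figure D1:**
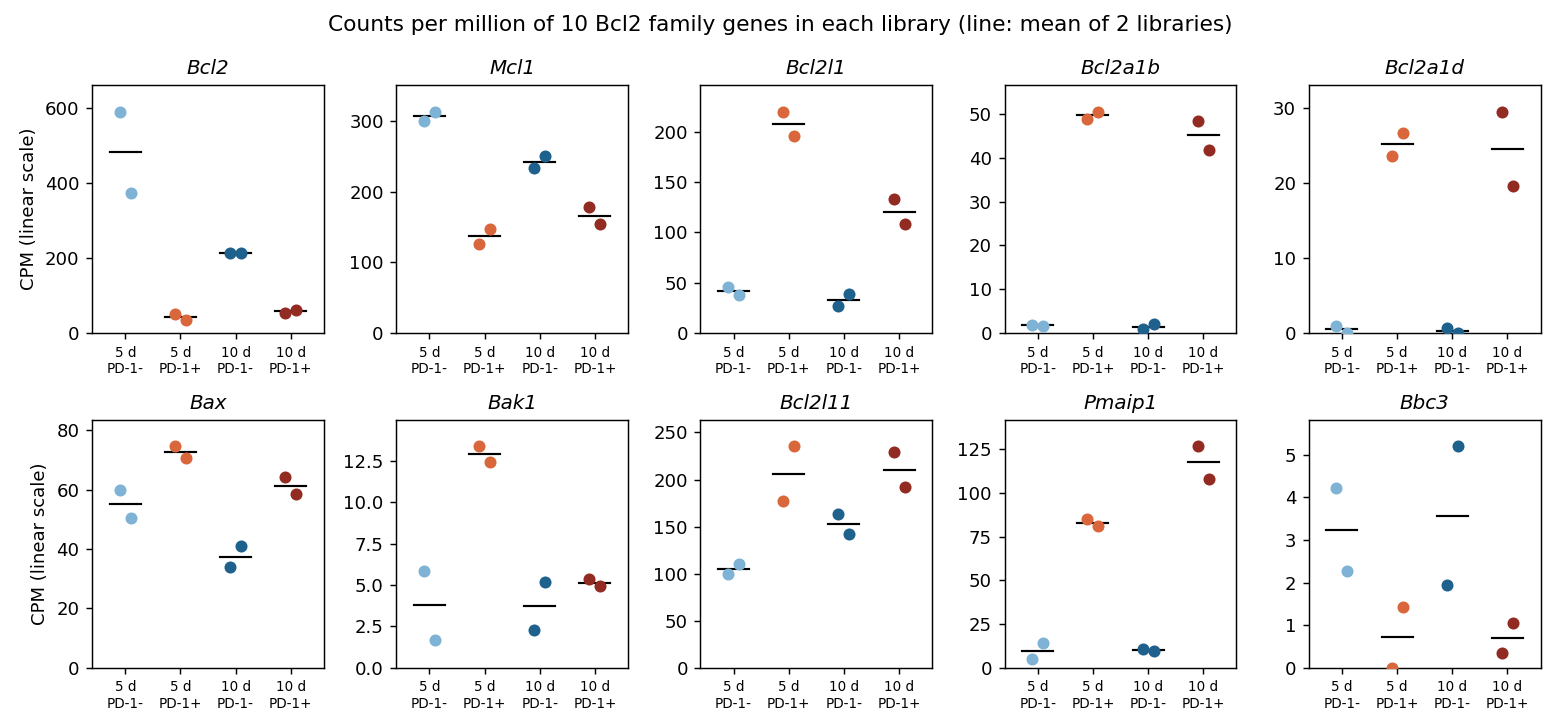
Scaled counts (CPM, linear axes from 0) of each gene in the 8 libraries, in groups of 2 by age (5 d, 10 d) and PD-1; points are libraries and lines are group means. Bcl2 and Mcl1 are lower and Bcl2l1, Bcl2a1b, Bcl2a1d, Bcl2l11 and Pmaip1 higher in all PD-1+ than in all PD-1- libraries, while Bax and Bak1 overlap.

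Bcl2 (chromosome 1, 106538178 to 106714274, minus strand, GRCm38) encodes the founding survival protein. At 5 days PD-1- replicates 2 and 3 held 589.7 and 372 CPM, and the PD-1+ libraries of the same numbers 52.0 and 35.8. At 10 days both PD-1- libraries stood at 214 CPM and PD-1+ replicates 1 and 2 at 52.7 and 62.2 CPM. Every PD-1+ library was thus below every PD-1- library, and the 5-day PD-1- libraries were the highest of all. The difference over both ages was -2.66 ± 0.35 on the log2 scale (± on a log2 fold change is its standard error, edgeR adjusted p = 0.000512). An antisense gene, D630008O14Rik, shares 558 of the 9157 exon bases of Bcl2. It had 6 to 46 counts in PD-1- and 0 to 5 in PD-1+ libraries against 75 to 1820 for Bcl2, and the sources used here do not give the strand setting of the counting.

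The difference in Bcl2 was wider at 5 than at 10 days. It was -3.46 ± 0.24 at 5 days (edgeR adjusted p = 9.37e-08) and -1.90 ± 0.23 at 10 days (edgeR adjusted p = 1.90e-05). The test of the change between ages gave 1.56 ± 0.32 (edgeR adjusted p = 0.0244), and Bcl2 was the single member called in it, against 2.12% of all genes. Between 5 and 10 days Bcl2 fell by 1.17 ± 0.21 on the log2 scale in PD-1- cells (edgeR adjusted p = 0.0316), where 0.27% of all genes were called, and differed by 0.39 ± 0.24 in PD-1+ cells (edgeR adjusted p = 0.312), where 14.4% were. The call of the change between ages, though not its direction, depended on single libraries, being lost without any of 5 and kept without the other 3 (1.68, 1.82 and 1.83; edgeR adjusted p = 0.0432, 0.0255 and 0.000727). It was 1.56 without 10-day PD-1- replicate 1 (edgeR adjusted p = 0.103), 1.56 without 10-day PD-1- replicate 2 (0.0833), 1.44 without 10-day PD-1+ replicate 2 (0.0546), 1.19 without 5-day PD-1- replicate 2 (0.0559) and 1.28 without 5-day PD-1+ replicate 3 (0.103). In PD-1- cells the change with age was -1.17 without 10-day replicate 1 (edgeR adjusted p = 0.423), -1.17 without 10-day replicate 2 (0.178) and -0.80 without 5-day replicate 2 (0.117).

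Mcl1 (chromosome 3, 95658788 to 95663176, plus strand), a short-lived survival protein that T cells need at every stage, ran the same way with a smaller step. PD-1- libraries held 300.4 and 313 CPM at 5 days and 233 and 251 CPM at 10 days. PD-1+ libraries held 127 and 148 CPM at 5 days and 178 and 154 CPM at 10 days, with no overlap. The difference over both ages was -0.85 ± 0.15 (edgeR adjusted p = 0.000351). By age it was -1.16 ± 0.16 at 5 days (edgeR adjusted p = 2.98e-05) and -0.54 ± 0.16 at 10 days (edgeR adjusted p = 0.0139), and the change between ages was not called (0.62 ± 0.22, edgeR adjusted p = 0.170). At 10 days the difference was -0.49 without PD-1- replicate 2 (edgeR adjusted p = 0.0831) and -0.43 without PD-1+ replicate 2 (0.119).

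Bcl2l1 (chromosome 2, 152780668 to 152831728, minus strand), the gene of Bcl-xL, went the other way. The 5-day PD-1- libraries read 45.4 and 37.5 CPM, against 220.3 and 196 in the 5-day PD-1+ libraries. At 10 days the values were 26.6 and 39.0 CPM without and 133 and 108 with PD-1. All 4 PD-1+ libraries were higher than any PD-1- library, and within the PD-1+ libraries both 5-day values exceeded both 10-day values. The difference was 2.12 ± 0.18 over both ages, 2.32 ± 0.22 at 5 days and 1.91 ± 0.23 at 10 days (edgeR adjusted p = 2.71e-07, 6.54e-07 and 6.57e-06). Within PD-1+ cells Bcl2l1 fell by 0.79 ± 0.20 from 5 to 10 days on the log2 scale (edgeR adjusted p = 0.0160). It was the single member called there, and it was not called without 10-day replicate 2 (-0.64, edgeR adjusted p = 0.116) or without 5-day replicate 2 (-0.72, 0.141). The change of the PD-1 difference with age was not called (-0.40 ± 0.31, edgeR adjusted p = 0.598).

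Of the 3 start sites that RefSeq lists for Bcl2l1 on GRCm38.p6, the window of 1 holds a match to the consensus of NF-kB, the factor family known to act on survival genes in stimulated lymphocytes. It runs from 250 bases before to 50 bases after the start, at chr2:152830668-152830967 on the minus strand, and is shown because Bcl2l1 is the survival gene outside the A1 copies that was higher in PD-1+ cells. The match, searched on both strands, is in capitals, and 4.51% of the 32851 windows in the table hold one. Among the other members, 1 of the 3 windows of Bbc3 holds a match too, and those of the A1 copies hold 0.
Bcl2l1: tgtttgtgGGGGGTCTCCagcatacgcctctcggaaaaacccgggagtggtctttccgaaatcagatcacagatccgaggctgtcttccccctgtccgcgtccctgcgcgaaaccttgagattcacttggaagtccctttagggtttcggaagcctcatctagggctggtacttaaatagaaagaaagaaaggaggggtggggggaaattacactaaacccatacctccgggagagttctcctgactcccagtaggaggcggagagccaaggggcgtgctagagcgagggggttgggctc
A match of letters is a description of this window and does not show that the factor binds there.

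Bcl2a1b (chromosome 9, 89199209 to 89207827, plus strand) and Bcl2a1d (chromosome 9, 88723285 to 88731914, minus strand) are copies of the gene of A1, a survival protein of activated lymphocytes and myeloid cells. In the mouse the gene was duplicated, and a further copy, Bcl2a1a, lies between them at 88956900 to 88962419. Their longest transcripts are near-identical: Bcl2a1b and Bcl2a1d match at 99.1% of 817 aligned positions and Bcl2a1b and Bcl2a1a at 98.2%. Only 7.94% of the stretches of 25 bases in Bcl2a1b, 8.22% of those in Bcl2a1d and 16.5% of those in Bcl2a1a occur in no transcript of another gene, and reads were 25 bases long at each end. The sources used here do not say how reads with several positions were counted. Gm29094, on the same strand, also shares 401 of the 817 exon bases of Bcl2a1b and had 0 to 1 counts a library. Which copy a read came from is uncertain, and levels of single copies may be too low.

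The windows around the starts of the 3 copies are shown since the counted copies moved together while Bcl2a1a had 0 to 2 counts in any library. Each runs 250 bases upstream to 50 downstream of the RefSeq start (GRCm38.p6): chr9:89199023-89199322 on the plus strand for Bcl2a1b, chr9:88731801-88732100 on the minus strand for Bcl2a1d and chr9:88956670-88956969 on the plus strand for Bcl2a1a. Capitals mark TGANTCA, a looser form of the AP-1 motif TGA(C/G)TCA, and GGAAAA, the core of the NFAT motif, on either strand. In all 3 copies the first stretch reads TGAATCA, which the looser form admits and the AP-1 motif itself does not. AP-1 and NFAT factors act downstream of the T cell receptor.
Bcl2a1b: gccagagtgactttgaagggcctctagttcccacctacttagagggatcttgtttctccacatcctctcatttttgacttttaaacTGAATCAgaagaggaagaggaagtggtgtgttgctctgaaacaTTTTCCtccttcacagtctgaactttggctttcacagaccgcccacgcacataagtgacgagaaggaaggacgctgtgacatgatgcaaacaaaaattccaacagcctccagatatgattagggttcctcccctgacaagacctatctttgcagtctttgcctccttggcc
Bcl2a1d: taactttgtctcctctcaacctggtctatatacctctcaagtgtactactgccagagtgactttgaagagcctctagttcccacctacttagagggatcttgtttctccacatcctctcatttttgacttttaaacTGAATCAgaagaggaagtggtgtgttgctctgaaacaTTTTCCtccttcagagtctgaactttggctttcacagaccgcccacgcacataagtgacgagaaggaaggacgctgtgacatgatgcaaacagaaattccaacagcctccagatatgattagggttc
Bcl2a1a: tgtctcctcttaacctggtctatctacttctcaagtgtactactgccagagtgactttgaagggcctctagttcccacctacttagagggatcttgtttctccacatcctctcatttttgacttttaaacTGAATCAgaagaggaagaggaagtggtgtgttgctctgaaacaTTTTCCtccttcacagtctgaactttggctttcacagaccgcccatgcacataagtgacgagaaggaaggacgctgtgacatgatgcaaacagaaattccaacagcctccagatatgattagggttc
Each copy holds 1 match of each pattern, which 7.81% (TGANTCA) and 23.4% (NFAT) of all windows hold. Among the other members TGANTCA was in 0 windows and the NFAT motif in 2 of the 3 of Bcl2l1 and in that of Bak1. Where they align, the windows of Bcl2a1b and Bcl2a1d are identical at 96.5% of positions and those of Bcl2a1b and Bcl2a1a at 99.2%.

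In PD-1- cells the A1 genes were barely counted, and in PD-1+ cells they were plainly expressed. Bcl2a1b had 6 and 3 counts in 5-day and 3 and 3 counts in 10-day PD-1- libraries, against 95, 106, 136 and 119 counts in the PD-1+ libraries. In CPM this was 1.64 ± 0.462 against 47.4 ± 3.86 (n = 4 each), a difference of 4.86 ± 0.30 (edgeR adjusted p = 1.63e-08). Bcl2a1d had 3, 0, 2 and 0 counts in PD-1- libraries and 46, 56, 83 and 56 in PD-1+ libraries, in the same order. Its ratio over both ages was 47.1, with a 95% exact interval from 19.9 to 146 that covers counting error only (edgeR adjusted p = 9.52e-07). Neither gene overlapped between populations, and PD-1+ libraries varied little among themselves. Summed over the 4 annotated copies, A1 ranged over 1.62 to 2.92 CPM without and 62.9 to 79.1 CPM with PD-1, a difference of 5.09 ± 0.27 (edgeR adjusted p = 3.15e-09).

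Neither age nor its interaction with PD-1 moved A1 past the threshold. The sum differed by 4.91 ± 0.37 at 5 days and 5.31 ± 0.39 at 10 days, and the difference between them was 0.40 ± 0.62 (edgeR adjusted p = 0.835). A1 is also known from neutrophils and mast cells. Of 9 neutrophil markers, 5 were detected in PD-1- libraries (summed level 1.14 to 2.59 CPM) and 6 in PD-1+ libraries (2.06 to 5.70 CPM). Csf3r was at 0 in every library. S100a8 and S100a9 were at 0 in all PD-1+ libraries and averaged only 0.0810 and 0.162 CPM in PD-1- libraries. Elane, Ly6g and Ngp went the other way, at 0 in all PD-1- libraries and at means of 0.207, 0.951 and 0.267 CPM in PD-1+ libraries, and Mpo averaged 1.28 and 2.23 CPM. Of 6 mast and basophil markers, 2 and 1 were detected, at 0 to 1.94 and 0 to 0.703 CPM. Cpa3 was at 0 in all PD-1+ libraries, and Mcpt8, Fcer1a, Mcpt4 and Tpsb2 were at 0 in every library of both populations. Macrophage and Kupffer markers, 8 of 8 detected in both populations, summed to 32.1 to 69.3 CPM without and 39.6 to 60.5 CPM with PD-1. Of the 5 tested over both ages, 1 was called lower, 1 higher and 3 were not called. Cd68 averaged 31.7 CPM without and 18.2 with PD-1 (-0.94 ± 0.27, edgeR adjusted p = 0.0112). Cd5l averaged 2.23 ± 2.76 and 10.2 ± 1.64 CPM (2.48 ± 0.76, edgeR adjusted p = 0.0189). It passed the filter on low counts through the PD-1+ libraries, so it had to differ. At 10 days Cd5l and Marco were called higher (edgeR adjusted p = 0.000128 and 0.0229) and Cd68 was not called. Over both ages Marco was not called, at 6.69 ± 10.1 CPM without and 6.70 ± 3.06 with PD-1 (edgeR adjusted p = 0.530). The part of these cells in the A1 difference was not tested.

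Of the pore-forming genes, Bax was called higher in PD-1+ cells and Bak1 was not called. Bax (chromosome 7, 45461697 to 45466898, minus strand) read 59.9 and 50.5 CPM in PD-1- against 74.6 and 70.7 in PD-1+ libraries at 5 days. At 10 days it read 34.0 and 41.0 against 64.1 and 58.7 CPM. Gm45808, on the same strand, shares 192 of the 1576 exon bases of Bax and had 0 counts in every library. For Bax the populations overlapped across ages but not within an age. Its difference was 0.55 ± 0.17 over both ages (edgeR adjusted p = 0.0182), 0.39 ± 0.23 at 5 days (0.202) and 0.72 ± 0.23 at 10 days (0.0270). It was not called over both ages without 10-day PD-1- replicate 1 (0.47, edgeR adjusted p = 0.0681) or without the 5-day libraries numbered 3 (0.59, 0.0548). At 10 days it was lost without PD-1- replicate 1 (0.59, edgeR adjusted p = 0.192), PD-1+ replicate 1 (0.67, 0.123) or PD-1+ replicate 2 (0.80, 0.0530), and with DESeq2 (0.71, adjusted p = 0.0561).

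Bak1 (chromosome 17, 27019810 to 27029009, minus strand) was the least certain of the effectors, with 3 to 26 counts a library. In CPM it was 5.83 and 1.70 in 5-day PD-1- against 13.4 and 12.4 in 5-day PD-1+ libraries, and 2.27 and 5.20 in 10-day PD-1- against 5.34 and 4.92 in 10-day PD-1+ libraries. At 5 days the groups stood apart and at 10 days they overlapped. The difference was 1.16 ± 0.49 over both ages (edgeR adjusted p = 0.0692), 1.66 ± 0.63 at 5 days (0.0519) and 0.56 ± 0.69 at 10 days (0.589). Over both ages it was called without 10-day PD-1- replicate 2 (1.50, edgeR adjusted p = 0.0306) and by limma voom (1.29, adjusted p = 0.0371). At 5 days it was called without 10-day PD-1- replicate 1 (1.66, 0.0455), 10-day PD-1- replicate 2 (1.67, 0.0493) or 5-day PD-1- replicate 2 (2.88, 0.0298), under RLE scaling (1.69, edgeR adjusted p = 0.0475) and by limma voom (1.73, adjusted p = 0.0405). Ggnbp1, on the opposite strand, shares 614 of its 2407 exon bases and had 0 to 5 counts a library.

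Bcl2l11 (chromosome 2, 128126038 to 128162547, plus strand), the gene of Bim, was the most abundant of the 3 BH3-only members in PD-1- cells and was higher still in PD-1+ cells. At 5 days the PD-1- libraries read 99.2 and 111 CPM and the PD-1+ libraries 177 and 235. At 10 days they read 164 and 142 against 229 and 192. No PD-1+ library was below a PD-1- library, though 177 and 164 CPM lay close. The difference was 0.71 ± 0.15 over both ages (edgeR adjusted p = 0.00183) and 0.98 ± 0.18 at 5 days (0.000541). At 10 days it was 0.46 ± 0.18 and not called (edgeR adjusted p = 0.0623), though it was called without PD-1+ replicate 2 of that age (0.59, 0.0499). The change with age was not called (-0.52 ± 0.25, edgeR adjusted p = 0.346). Bim is known as a target of FOXO factors. Over both ages Foxo1 (-1.59 ± 0.16) and Foxo3 (-0.59 ± 0.23) were lower in PD-1+ cells (edgeR adjusted p = 1.75e-06 and 0.0481). Their part in the level of Bcl2l11 was not tested. Of the 2 RefSeq windows of Bcl2l11, 1 (chr2:128125788-128126087, plus strand, GRCm38.p6) holds the motif GTAAACA, in capitals. So do 3.65% of all windows, searched on both strands, and 1 of the 3 windows of Bbc3.
Bcl2l11: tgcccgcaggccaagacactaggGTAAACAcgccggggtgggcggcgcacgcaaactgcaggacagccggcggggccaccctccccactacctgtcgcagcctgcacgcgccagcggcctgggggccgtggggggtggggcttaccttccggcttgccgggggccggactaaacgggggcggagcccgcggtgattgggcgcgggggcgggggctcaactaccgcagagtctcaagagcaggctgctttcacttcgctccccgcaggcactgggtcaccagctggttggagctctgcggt

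Pmaip1 (chromosome 18, 66458533 to 66465565, plus strand) encodes Noxa, the BH3-only protein that binds Mcl1 and A1. It rose with PD-1 more than any member outside the A1 genes. The 5-day libraries read 5.18 and 14.2 CPM without and 84.9 and 81.2 with PD-1. The 10-day libraries read 10.7 and 9.76 CPM without and 127 and 108 with PD-1. The lowest PD-1+ library was well above the highest PD-1- library. The difference was 3.36 ± 0.25 over both ages, 3.21 ± 0.34 at 5 days and 3.50 ± 0.33 at 10 days (edgeR adjusted p = 1.03e-07, 2.87e-06 and 7.66e-07).

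Bbc3 (chromosome 7, 16308393 to 16318205, plus strand), the gene of the p53 target Puma, had few counts in any library. PD-1- libraries had 13 and 4 counts at 5 days and 6 and 8 at 10 days, and PD-1+ libraries 0, 3, 1 and 3. Over both ages these were 31 against 7 counts, 3.41 ± 1.56 against 0.711 ± 0.650 CPM, and a difference of -2.14 ± 0.81 (edgeR adjusted p = 0.0467). At these counts the call was fragile: leaving out any 1 of the 8 libraries ended it (-2.73 to -1.75), as did leaving out both 5-day libraries numbered 3 (-2.78, edgeR adjusted p = 0.0636), DESeq2 (-2.22, adjusted p = 0.0507) and limma voom (-2.10, adjusted p = 0.0522).

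By age, 5 members were called higher and 2 lower at 5 days, where 17.6% and 16.7% of all tested genes were. At 10 days 5 were called higher and 2 lower, against 16.4% and 12.9% of all tested genes. Bcl2, Mcl1, Bcl2l1, Bcl2a1b, Bcl2a1d and Pmaip1 were called at both ages in the same direction. Bcl2l11 was called at 5 days and Bax at 10 days, and for neither was the difference between ages called. For age itself 1 of 10 members was called in each population, Bcl2 in PD-1- cells, where 0.27% of all genes were called, and Bcl2l1 in PD-1+ cells, where 14.4% were.

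**Figure D2:**
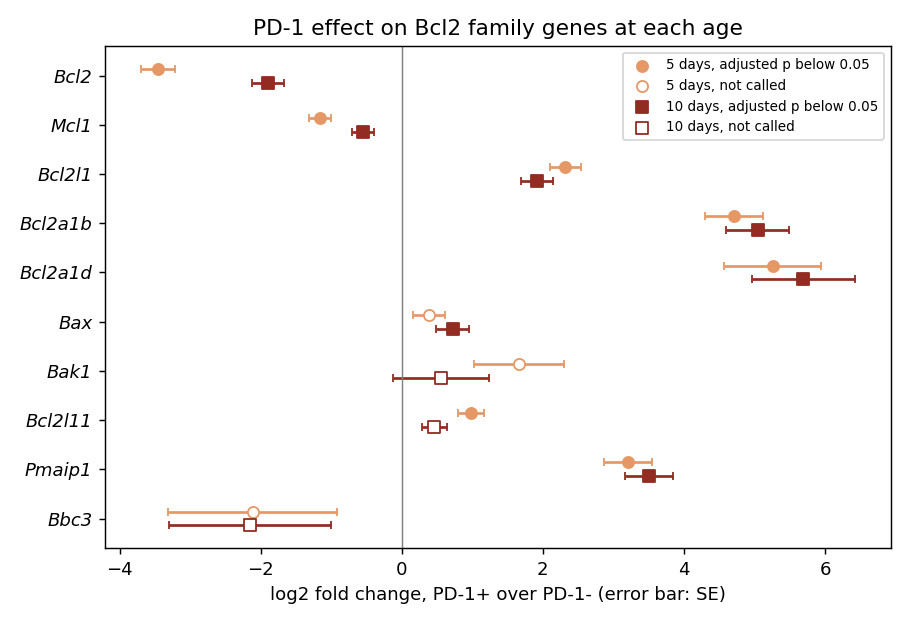
Log2 fold change of PD-1+ over PD-1- libraries at 5 days (circles) and 10 days (squares), with standard errors; filled symbols passed an adjusted p below 0.05. Bcl2 moves from -3.46 at 5 days to -1.90 at 10 days, while Pmaip1 and the Bcl2a1 genes stay above 3 at both ages.

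Ratios of counts within a library do not depend on library scaling. Bcl2 to Bcl2l11 was 5.95 and 3.36 in 5-day PD-1- libraries, 1.30 and 1.51 in 10-day PD-1- libraries, 0.294 and 0.152 in 5-day PD-1+ and 0.230 and 0.324 in 10-day PD-1+ libraries. So Bcl2 had more counts than Bcl2l11 in every PD-1- library and fewer in every PD-1+ library. Mcl1 to Pmaip1 was 21.8 to 57.9 in PD-1- and 1.40 to 1.82 in PD-1+ libraries. Bax to Bcl2 was 0.102 to 0.192 in PD-1- and 0.944 to 1.97 in PD-1+ libraries. These pairs were chosen with results of these data known, so the ratios are descriptions and carry no test. They are of counts, not of transcripts per length, so their change between libraries can be read but not their closeness to 1.

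**Figure D3:**
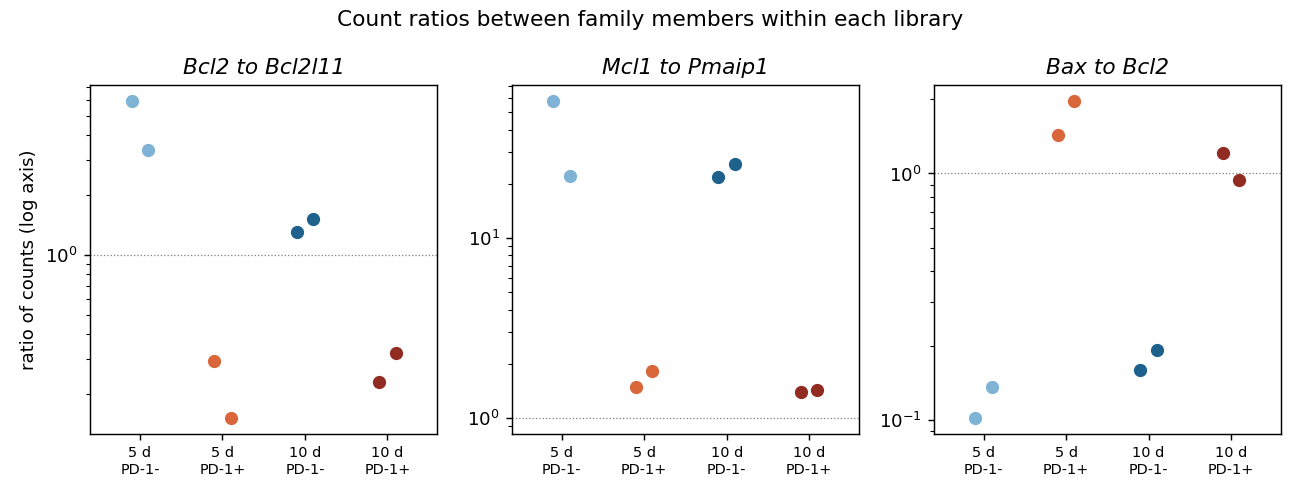
Ratio of the counts of 2 genes within each library (log axes; points are libraries, in groups of 2 by age and PD-1; the dotted line is a ratio of 1). PD-1+ libraries sit below PD-1- libraries for Bcl2 to Bcl2l11 and Mcl1 to Pmaip1 and above them for Bax to Bcl2.

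Levels can be compared between genes only per length, here as TPM, which divides counts by the GENCODE M21 exon length and by the library's sum of such values. In PD-1- cells Mcl1 led with 269 ± 22.4 TPM, followed by Bcl2 (126 ± 60.3), Bax (98.2 ± 19.4), Bcl2l11 (54.8 ± 16.4), Bcl2l1 (27.0 ± 4.52) and Pmaip1 (12.3 ± 4.45, SD, n = 4). The ranges of Bcl2 and Bax over libraries overlapped, as did those of neighbours from Pmaip1 down through Bcl2a1b (6.70 ± 1.64), Bbc3 (5.37 ± 2.39), Bak1 (5.22 ± 2.78) and Bcl2a1d (1.62 ± 1.90). In PD-1+ cells Bcl2a1b stood first at 165 ± 10.4 TPM, with Mcl1 at 128 ± 28.1, Bax at 120 ± 2.30, Pmaip1 at 106 ± 31.8, Bcl2l1 at 99.9 ± 22.2, Bcl2a1d at 82.2 ± 15.0 and Bcl2l11 at 74.2 ± 12.4. The range of each of these overlapped that of the next in the order, but those farther apart did not all overlap: every Bcl2a1b library was above every library of Bax and of the genes after it, and every Bcl2l11 library was below every library of Mcl1 and Bax. Bcl2 dropped from the second place to the eighth, at 16.0 ± 4.79 TPM, below all libraries of those 7 genes and overlapping Bak1 (10.3 ± 4.25), and Bbc3 was last (0.967 ± 0.853). The places of Bcl2a1b and Bcl2a1d are uncertain, since most of their stretches of 25 bases occur in other genes too. Exon bases that Bcl2a1b shares with Gm29094 and Bax with Gm45808 may also have lowered their counts, which was not tested.

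**Figure D4:**
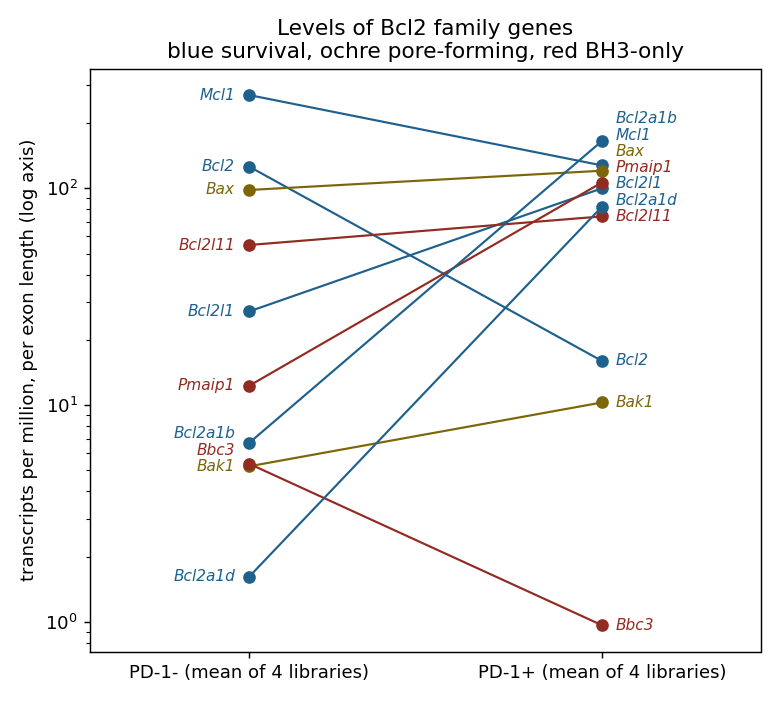
Mean TPM of each gene over 4 PD-1- libraries (left) and 4 PD-1+ libraries (right) on a log axis, joined by a line; blue are survival, ochre pore-forming and red BH3-only genes. Bcl2 falls from 126 to 16.0 TPM while Bcl2a1b rises from 6.70 to 165 TPM and Mcl1 stays among the highest. Levels of the single copies Bcl2a1b and Bcl2a1d are uncertain.

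The genes whose profile over the 8 libraries lay closest to that of Bcl2 were Ecm1, Tec and Bach2. Closeness was the root mean square difference of log2 CPM centred per gene, among 7310 genes, and was 0.30, 0.37 and 0.39 against a spread of 1.41 for Bcl2 itself. Ecm1 encodes a secreted matrix protein, Tec a kinase of receptor signalling, and Bach2 a repressor that restrains effector differentiation. For Bcl2l11 the closest were Pik3cg, a catalytic subunit of phosphoinositide 3-kinase (0.10), Lypla1, a thioesterase (0.10), and Zdhhc21, a palmitoyltransferase (0.15). For Bcl2a1b they were Osbpl3, a lipid-binding protein (0.29), Cish, a feedback inhibitor of cytokine signalling (0.29), and Il2rb, a receptor chain for interleukins 2 and 15 (0.33).

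The counts of the lists that follow are over both ages, where 21.9% of all tested genes were called higher and 19.6% lower. They include genes that passed the filter on low counts through 1 population only, among them Bnip3 and Perp, so they are descriptions. The rest of the family followed no single direction. Among the other survival genes, 0 of 4 had enough counts to test (Bcl2a1a, Bcl2a1c, Bcl2l2 and Bcl2l10). Of 8 other pore-forming and BH3-only genes, 5 were tested, 2 were higher and 1 lower. Bid, which links death receptors to mitochondria, averaged 57.0 ± 9.83 CPM in the PD-1+ and 20.2 ± 8.09 in the PD-1- libraries (1.49 ± 0.27, edgeR adjusted p = 0.000436). Bnip3, a mitophagy receptor, was higher (1.93 ± 0.54) and its relative Bnip3l lower (-0.82 ± 0.15; edgeR adjusted p = 0.0103 and 0.000439). Of 16 atypical relatives and partners 13 were tested, with 3 higher, 0 lower and 10 not called. Those called were Bnip2 (0.69 ± 0.13) and the mitochondrial channels Vdac3 (0.68 ± 0.19) and Vdac2 (0.39 ± 0.14).

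Downstream, of 18 genes of the apoptosome, caspases and their inhibitors 17 were tested, with 6 higher and 3 lower. Dffb, a nuclease that cuts DNA during apoptosis, was lower (-1.10 ± 0.18, edgeR adjusted p = 0.000178). Of 15 death receptor genes, all tested, 9 were higher and 3 lower. Traf1, an adaptor of tumour necrosis factor receptors induced by NF-kB, went from 36.7 ± 8.22 to 420.3 ± 5.50 CPM (3.54 ± 0.17, edgeR adjusted p = 1.40e-09). Fasl, the death ligand, was higher by 4.21 ± 0.28, whereas its receptor Fas was lower (-1.71 ± 0.19; edgeR adjusted p = 3.59e-08 and 5.50e-06).

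Of 18 genes of p53 and its targets 16 were tested, with 6 higher and 4 lower. Sesn1, a stress sensor of metabolism, was lower (-3.23 ± 0.16) and Cdkn1a, the cell cycle inhibitor p21, higher (4.99 ± 0.29; edgeR adjusted p = 1.96e-09 and 9.61e-09). Perp, a membrane protein, had 2 counts over the 4 PD-1- libraries and 468 over the 4 PD-1+ libraries, a ratio of scaled levels of 229 with a 95% exact counting interval from 63.0 to 1894 (edgeR adjusted p = 1.57e-07). Since Perp passed the filter through the PD-1+ libraries, it had to differ. Trp53 itself was not called (-0.31 ± 0.13, edgeR adjusted p = 0.0688). Upstream, all 19 cytokine and kinase genes were tested, with 6 higher and 9 lower. Il7r, the receptor through which interleukin-7 sustains Bcl2 in resting T cells, dropped from 361 ± 97.6 to 19.1 ± 6.19 CPM (-4.25 ± 0.28). Pik3ip1, an inhibitor of phosphoinositide 3-kinase, was lower too (-3.83 ± 0.20) and Il2rb higher (4.11 ± 0.23; edgeR adjusted p = 8.00e-07, 2.22e-09 and 3.33e-08). Of 19 transcriptional and protein-turnover regulators 18 were tested, with 6 higher and 6 lower, among them the NF-kB subunits Nfkb1 (2.00 ± 0.14) and Nfkb2 (2.07 ± 0.14) and, downward, the naive cell factor Lef1 (-2.77 ± 0.16; edgeR adjusted p = 5.17e-08, 3.33e-08 and 7.03e-09).

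**Figure D5:**
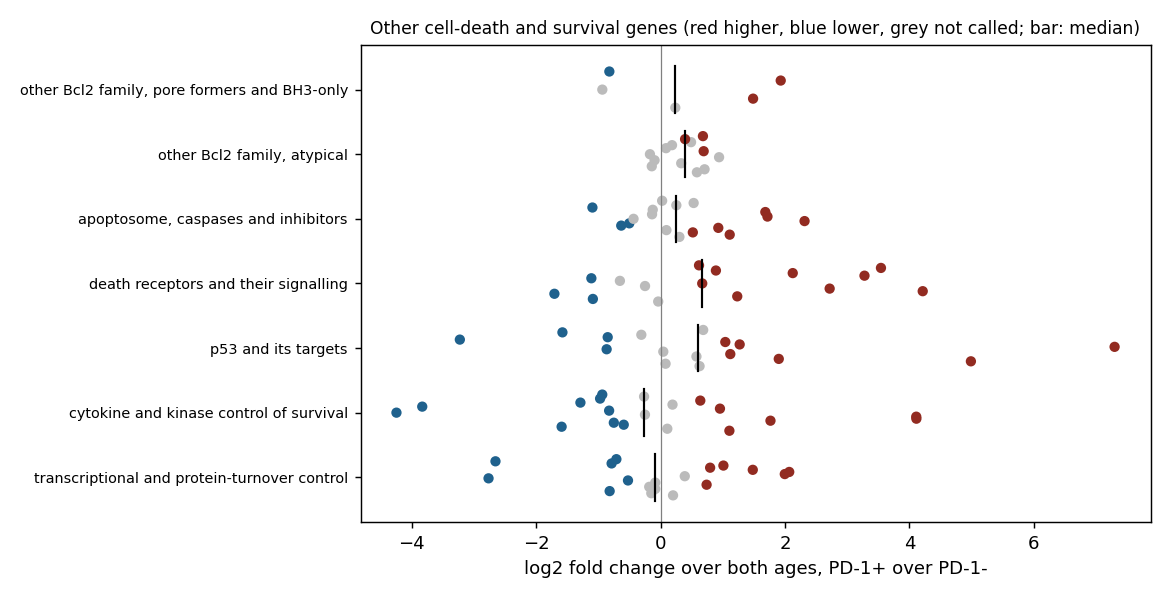
Log2 fold change over both ages of each tested gene of 7 lists (points; red called higher, blue called lower, grey not called at an adjusted p below 0.05; black bars are list medians). Every list holds genes on both sides of 0, with Il7r and Pik3ip1 farthest to the left in the cytokine and kinase list.

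Among markers of other cells, hepatocyte transcripts (8 of 8 detected in both populations) summed to 11.9 to 22.4 CPM in PD-1- and 29.1 to 77.7 CPM in PD-1+ libraries. The list was split. Alb averaged 2.11 and 30.4 CPM, Apoa1 1.52 and 5.90 CPM and Ttr 0.304 and 6.42 CPM, and these were called higher. Apoa1 and Ttr passed the filter on low counts through the PD-1+ libraries, so they had to differ. Afp was level (11.5 and 11.7 CPM, not called), and Apob, too sparse to test, averaged 0.851 and 0.295 CPM. Erythroid transcripts (7 of 8 detected in each) summed to 11.1 to 29.8 and 2.81 to 5.34 CPM, with Hba-a2 at 0 in PD-1+ libraries. B cell markers (8 of 8 in each) summed to 547 to 643 and 294 to 358 CPM, and endothelial and stromal ones (6 and 8 of 8, with Lyve1 and Col1a1 at 0 in PD-1- libraries) to 299.9 to 379 and 103 to 145 CPM. NK and innate lymphoid markers (6 and 7 of 8, Klra4 at 0 in both and Klra8 in PD-1- libraries) summed to 12.3 to 92.9 and 63.0 to 182 CPM. Within that list Ncr1 averaged 4.07 and 0.386 CPM and Klrb1c 5.21 and 0.514 CPM, while Il1rl1 went the other way at 1.22 and 42.6 CPM. Each of these passed the filter on low counts through the population where it was higher, so it had to differ. Gzma averaged 30.8 and 66.6 CPM and was not called. Gamma-delta T cell markers (4 of 4 in each) summed to 3.89 to 18.9 and 17.6 to 45.2 CPM. CD8 markers (2 of 2 in each) summed to 27.5 to 47.6 and 6.18 to 27.4 CPM and dendritic ones (7 and 8 of 8, Batf3 at 0 in PD-1-) to 9.40 to 28.8 and 12.9 to 34.5 CPM. The part of these cells in the differences of the Bcl2 family was not tested.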

How the data were processed

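The authors deposited raw counts by gene symbol for the 8 libraries in 1 table, whose columns were matched to samples by title. Per the submitters' processing notes STAR 2.5.4, featureCounts and build mm10 were used. Which annotation and strand setting were used, and how reads with several positions were treated, is not given in the sources used here. Counts were tested with edgeR 4.0.16 in R 4.3.3: filterByExpr with the 4 groups (11490 genes kept), TMM scaling and robust quasi-likelihood F tests. The effect over both ages came from a model that adds PD-1 to age, and a model of the 4 groups gave all other contrasts. Benjamini-Hochberg adjustment covered every gene tested. The standard error was taken as the fold change (log2) over the root of F. CPM used the tested counts times the TMM factor. TPM, positions and exon overlaps are from GENCODE M21 (GRCm38), matched by symbol for 49330 of 52997 symbols. RefSeq start windows were matched for 9 of 10 members. Intervals of count ratios are exact conditional binomial (95%). The script was tested on simulated data. Alternatives were RLE and upper-quartile scaling, other filters, DESeq2 1.42.0, limma voom 3.58.1, a replicate block, summed Bcl2a1 copies and leaving out libraries. The 10 members and all lists were chosen with earlier results of these data known. All members were named, with up to 3 genes of each pathway list by smallest p over both ages and the 3 closest profiles of Bcl2, Bcl2l11 and Bcl2a1b among genes averaging at least 4 in log2 CPM (prior count of 2). Other survival genes, Trp53 and genes overlapping a member were named beside these. Foxo1, Foxo3 and marker genes were named after their values were seen. Some genes that this rule names are not reported here.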

Additional observations from a re-analysis of the deposited data

Results flagged for a closer look

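The PD-1 difference of Bcl2 itself differed between ages by a test of that difference: the value at 10 days minus that at 5 days was 1.56 ± 0.32 on the log2 scale (edgeR adjusted p = 0.0244). Within each age, both PD-1+ libraries were below both PD-1- libraries. Groups of 2 libraries were too small to test for single outlying libraries. The call did depend on single libraries, as given for Bcl2 above, and was lost with limma voom (1.58, adjusted p = 0.0541).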

How the results depend on the processing

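Under all 17 alternatives Bcl2, Mcl1, Bcl2l1, Bcl2l11 and Pmaip1 kept their direction and call over both ages, as did Bcl2a1b and Bcl2a1d under the 16 that test each copy by itself. Over all comparisons 0 called members reversed. Settings that moved a count by more than 1.5 times are as follows, and their cause was not tested. Without a filter beyond 1 count, 1 member in place of 2 was called lower at 10 days (Mcl1 was lost, -0.48, edgeR adjusted p = 0.0671), and 180 in place of 31 genes were called for age in PD-1- cells and 469 in place of 244 for the interaction. DESeq2 called 75 genes for age in PD-1- cells, and limma voom called 0 members for the interaction (Bcl2, 1.58, adjusted p = 0.0541). Leaving out 1 library at a time gave 2328 to 3951 genes at 5 days, 2195 to 3527 at 10 days, 5 to 90 for age in PD-1- cells, 550 to 1839 for age in PD-1+ cells and 92 to 282 for the interaction. It gave 1 to 2 members lower at 10 days, 0 to 1 lower for age in each population and 0 to 1 higher for the interaction, where fewer samples entered each fit. Libraries of 1 age that share a replicate number deviated together weakly over 11490 genes (correlation 0.11 at 10 and 0.094 at 5 days) and by 0.22 at both ages over the 7564 genes of higher level. Both 5-day libraries numbered 3 were male and both numbered 2 female, and the labels do not say that same-numbered libraries share an animal. With the number as a replicate block, 483 genes were called for the interaction and Bcl2 was among them (1.54, edgeR adjusted p = 0.000622). The block also called Bak1 at 5 days (1.81, edgeR adjusted p = 0.0485) and Bcl2l11 at 10 days (0.46, 0.0321), and ended the call of Bbc3 over both ages (-2.22, 0.0636). Depth limits Bbc3 and Bak1, with at most 26 counts in a library, and the A1 genes in PD-1- cells, with at most 6.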
